A study of Mus musculus with 4 samples.

Results

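The angiopoietin and TIE receptor genes *Angpt1*, *Angpt2*, *Tek*, *Tie1* and *Ptprb* were followed by symbol through single-cell libraries of vessel fragments from the cerebra of *Angpt2*-WT and *Angpt2*-KO mice. They are 5 of the 32286 genes counted, and each was found under 1 identifier. The libraries came from 4 mice of 3 months, 1 library per mouse: the *Angpt2*+/+ mice WT1 (female) and WT2 (male), and the *Angpt2*-/- mice KO1 (female) and KO2 (male). The null allele was made by crossing a floxed *Angpt2* line with *Pgk*-Cre, which recombines in all tissues, and was backcrossed to C57BL6/J, and the *Angpt2*-WT mice were littermates from heterozygous breeding. The deletion is therefore constitutive and not confined to ECs, and no treatment is named for these mice. Fragments were enriched with magnetic beads against PECAM1, and the libraries also held mural and immune cells. WT1 and KO1 share a sex and a replicate number, as do WT2 and KO2, and effects of these cannot be told apart.

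Angiopoietins are secreted ligands of the receptor tyrosine kinase TIE2, the product of *Tek* in endothelial cells (ECs). ANGPT1, made mainly by mural cells, activates TIE2 and stabilises vessels, whereas ANGPT2, made by ECs themselves and raised in sprouting or inflamed vessels, acts as an agonist or an antagonist depending on the setting. TIE1 is a related receptor without a high-affinity angiopoietin ligand that modulates TIE2, and the phosphatase VE-PTP, encoded by *Ptprb*, removes phosphate from TIE2 at EC contacts.

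In the GRCm38 build, *Angpt1* (ENSMUSG00000022309) lies at chr15:42424723-42676977 on the minus strand, *Tek* (ENSMUSG00000006386) at chr4:94739289-94874976 on the plus strand, *Tie1* (ENSMUSG00000033191) at chr4:118471191-118490061 on the minus strand and *Ptprb* (ENSMUSG00000020154) at chr10:116275523-116389535 on the plus strand. *Angpt2* (ENSMUSG00000031465) lies at chr8:18690263-18741562 on the minus strand, within the opposite-strand gene *Mcph1* (chr8:18595131-18803189). The null allele lacks exon 4 of *Angpt2*, a coding exon of 233 bases at chr8:18705651-18705883. Its sequence is shown because it is the part of the gene that the *Angpt2*-KO cells lack, read on the minus strand from the reference genome:
*Angpt2* exon 4: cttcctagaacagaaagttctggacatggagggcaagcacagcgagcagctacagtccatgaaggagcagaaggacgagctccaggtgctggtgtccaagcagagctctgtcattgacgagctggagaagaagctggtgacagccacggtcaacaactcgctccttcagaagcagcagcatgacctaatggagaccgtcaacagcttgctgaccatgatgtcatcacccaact
This length is 2 bases beyond a multiple of 3. In the transcript Angpt2-201, which has 9 exons and 3560 bases, 2477 bases follow exon 4. The libraries were made with 10x 3′ chemistry, which counts molecules near their 3′ end. An *Angpt2* count therefore does not show whether exon 4 was present, and the counts do not check the genotype labels.

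The libraries held between 31753395 and 42903731 UMIs in the 17999 of 19809 barcodes that had more than 500 genes and under 10% mitochondrial UMIs. Median UMIs per cell were highest in KO1 (7352) and lowest in KO2 (4089), with 5441 in WT1 and 4675 in WT2. Between 7 and 30 barcodes of a library also occurred in another one. Classes were named by marker genes after clustering in which the 5 genes and 70 further genes of the pathway took no part. Brain ECs numbered 3226 and 4697 in WT1 and WT2, and 2086 and 4147 in KO1 and KO2. Fenestrated-like ECs numbered 137, 318, 156 and 200, pericyte-like cells 73, 146, 175 and 204, smooth muscle-like cells 266, 191, 52 and 194, and microglia-like cells 208, 161, 265 and 273, in the same order of mice. The defining markers were present in every mouse, with *Plvap* at 2803 to 3349 CPM in fenestrated-like ECs, *Kcnj8* at 248 to 411 CPM in pericyte-like cells, *Acta2* at 7073 to 9376 CPM in smooth muscle-like cells and *P2ry12* at 1706 to 2430 CPM in microglia-like cells (CPM, the UMIs of a gene divided by all UMIs of the summed cells of a mouse and class and scaled by 1e6). Doublets were not removed. Pericyte-like cells also held all 7 listed brain EC markers, with a summed level of 9922 to 11002 CPM, and smooth muscle-like cells held 5395 to 7608 CPM of them.

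Within brain ECs, clusters were named arterial-like, capillary-like, venous-like and angiogenic-like. A tip-like group with *Esm1* and *Apln* lay within the angiogenic-like cluster. The angiogenic and tip markers follow genes that the study reported from these same libraries. Angiogenic-like cells made up 1.18% and 0.79% of brain ECs in WT1 and WT2, and 39.5% and 20.9% in KO1 and KO2 (38, 37, 825 and 867 cells). The capillary-like class joins a cluster of 3998 cells and one of 3399 cells. The venous-like class joins a cluster of 706 cells with strong venous markers and one of 2542 cells in which the venous score (0.28) was only slightly above the capillary score (0.16).

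*Angpt2*, the deleted gene, was counted in all 4 mice, and over all brain ECs it was higher in *Angpt2*-KO mice. It was at 10.6 and 9.92 CPM in WT1 and WT2, and at 64.9 and 41.1 CPM in KO1 and KO2. Both *Angpt2*-KO values lay above both *Angpt2*-WT values. *Angpt2* rose by 2.35 ± 0.21 on the log2 scale (SE, n = 2 mice per genotype, edgeR's quasi-likelihood test, adjusted p = 0.0021), in a comparison in which 786 of 13521 genes (5.81%) were called. The call held under each of the 14 alternatives tried, with a difference between +1.94 and +2.67. *Mcph1*, on the other strand across *Angpt2*, differed by +0.16 ± 0.15 (adjusted p = 0.64). *Pecam1* (+0.21, adjusted p = 0.50) and *Cdh5* (−0.07, adjusted p = 0.85), which mark EC identity, were not called.

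Outside the angiogenic-like cluster, *Angpt2* was at 8.6 and 6.1 CPM in *Angpt2*-WT ECs and at 9.8 and 11.6 CPM in *Angpt2*-KO ECs. The ranges did not overlap, but the gap was small beside that over all ECs. The difference was +0.55 ± 0.20 (adjusted p = 0.31, edgeR, 1.32% of 13180 genes called). Without WT1 it was called, at +0.83 (adjusted p = 0.030), and the other leave-one-out values lay between +0.27 and +0.65 without a call. By zone, the genotype difference of *Angpt2* was −0.19 ± 0.39 in arterial-like, +0.41 ± 0.20 in capillary-like and +0.14 ± 0.33 in venous-like ECs, none called, while 0.371%, 1.34% and 1.15% of all genes were called there. The capillary-like clusters were not alike in this. The larger held *Angpt2* at 20.1, 13.8, 28.7 and 26.7 CPM in WT1, WT2, KO1 and KO2. In the smaller it was at 14.7, 11.3, 6.54 and 11.8 CPM, where the genotypes overlapped.

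The share of brain ECs with an *Angpt2* UMI was 4.96% (exact 95% binomial interval 4.24 to 5.77%) in WT1 and 3.41% (2.91 to 3.97%) in WT2, against 25.02% (23.2 to 26.9%) in KO1 and 11.9% (10.9 to 12.9%) in KO2. Both *Angpt2*-KO mice were above both *Angpt2*-WT mice. These intervals cover counting error only, and an exact permutation test of 2 mice against 2 cannot give a two-sided p under 0.3333, the value reached here. With each cell thinned to 2000 UMIs the shares were 2.00%, 1.60%, 8.41% and 6.41%. Microglia-like cells, taken as a class that should lack *Angpt2*, had an *Angpt2* UMI in 0.962 to 1.89% of cells, at median depths of 3497 to 6265 UMIs against 3886 to 7512 in brain ECs. After thinning, the microglial share was 0.465% in KO2 and 0 in the other 3 mice (0 of 132 to 238 cells).

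Cells of the angiogenic-like cluster held *Angpt2* in both genotypes. Its level there was 138 and 399 CPM in WT1 and WT2, from 57 and 133 UMIs, and 118 and 114 CPM in KO1 and KO2, from 1353 and 721 UMIs. The few *Angpt2*-WT cells of this cluster were thus not below the *Angpt2*-KO cells. In WT2, 62 of the 133 UMIs came from a single tip-like cell. No test of genotype was run within this cluster, because 38 and 37 cells stood against 825 and 867.

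**Figure D1:**
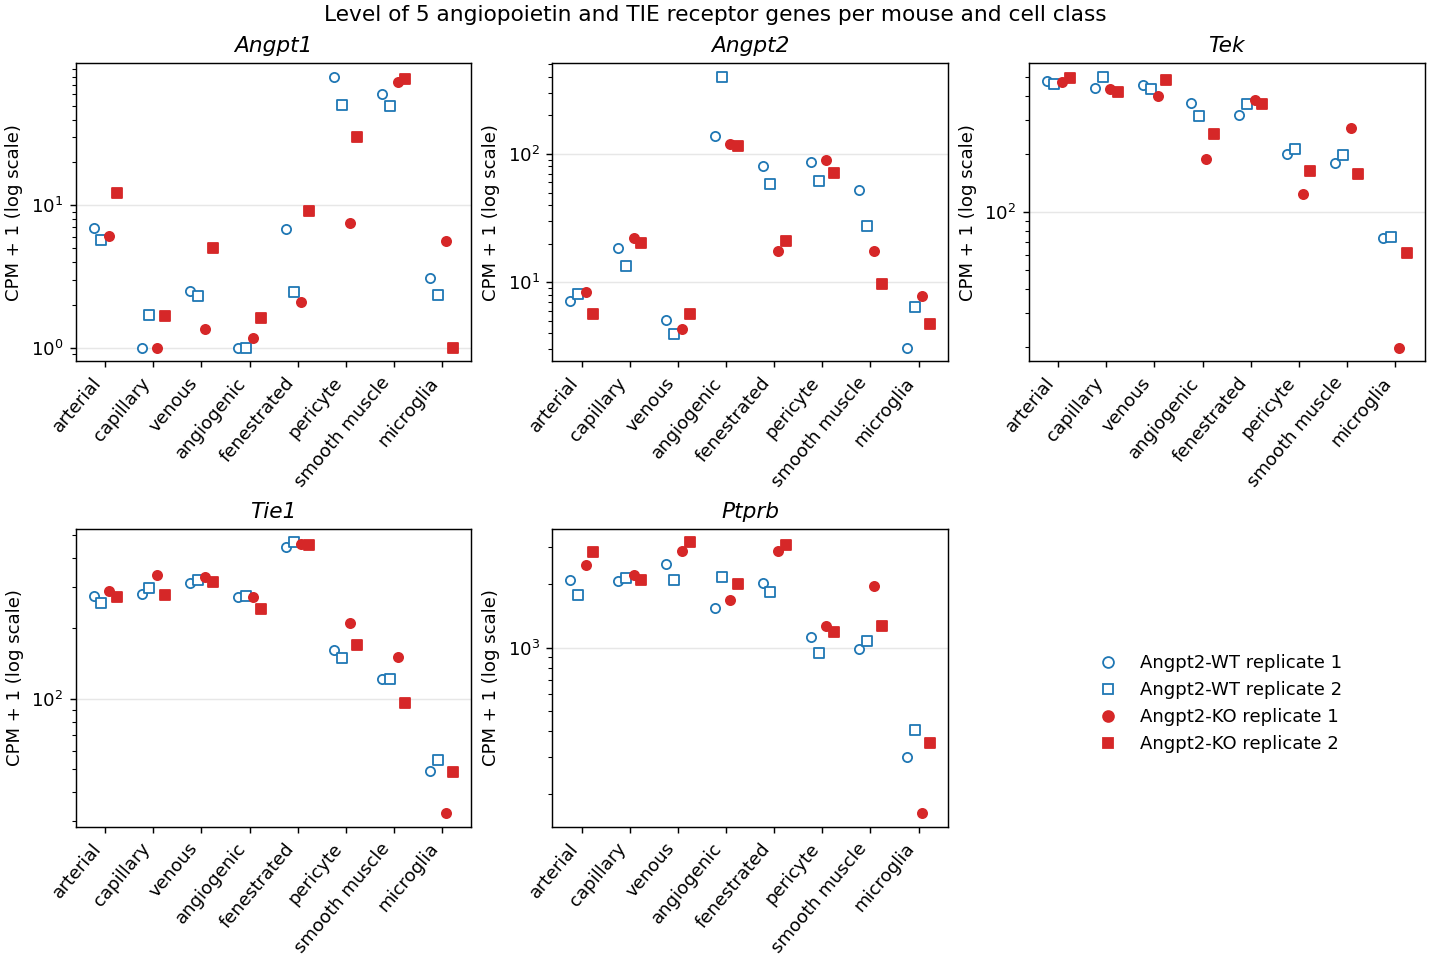
Level of the 5 genes per mouse and cell class, as CPM + 1 on a log axis; open symbols are *Angpt2*-WT and filled symbols *Angpt2*-KO mice, circles replicate 1 and squares replicate 2. *Angpt2* was highest in angiogenic-like ECs of both genotypes (114 to 399 CPM), and in fenestrated-like ECs both *Angpt2*-KO mice (16.5 and 19.9 CPM) lay below both *Angpt2*-WT mice (80.3 and 57.0 CPM).

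Fenestrated-like ECs, the permeable endothelium of sites such as the choroid plexus stroma, went the other way. *Angpt2* was at 80.3 and 57.0 CPM in WT1 and WT2 and at 16.5 and 19.9 CPM in KO1 and KO2. Both *Angpt2*-WT values stood well above both *Angpt2*-KO values. The difference was −1.96 ± 0.24 (SE, n = 2 mice per genotype) with an adjusted p of 0.11, in a class where edgeR called 0 of 9766 genes (percent called 0), DESeq2 called 3, and 385 genes had an unadjusted p under 0.05. DESeq2 called *Angpt2* at −1.96 (adjusted p = 0.021), as did edgeR without a filter on low counts, without WT1 (−1.69) or without WT2 (−2.20). The replicate block gave −1.96 with an adjusted p of 0.017. In cells without markers of another lineage the levels were 41.2, 47.5, 7.23 and 11.7 CPM in WT1, WT2, KO1 and KO2, again without overlap. They rest on only 5, 27, 5 and 5 UMIs in 25, 104, 65 and 98 cells. The difference was −2.39 ± 0.51 (edgeR, adjusted p = 0.54).

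Shares in fenestrated-like ECs followed the levels. An *Angpt2* UMI was found in 30.7% (23.1 to 39.1%) of cells in WT1 and 22.3% (17.9 to 27.3%) in WT2, and in 13.5% (8.53 to 19.8%) in KO1 and 11.5% (7.43 to 16.8%) in KO2. All were above the microglial share, and the genotypes did not overlap. After thinning to 2000 UMIs the shares were 12.8%, 8.50%, 4.14% and 3.09%. Summed pericyte markers in these cells (1348 and 797 CPM in WT1 and WT2, 956 and 2384 CPM in KO1 and KO2) and summed smooth muscle markers (292, 93.0, 78.8 and 422 CPM) did not separate the genotypes.

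The genotype difference of *Angpt2* in fenestrated-like ECs was compared with that in brain ECs outside the angiogenic-like cluster by an interaction term with the mouse as a block, a test added after the separate results were seen. The difference of differences was −2.50 ± 0.26 (edgeR, adjusted p = 1.2e-04, 0.358% of 12587 genes called). It stayed called under the 8 alternatives that gave a value, and DESeq2 gave no adjusted p for the gene. The other 4 genes did not pass this test. With smooth muscle-like cells in place of fenestrated-like ECs, the *Angpt2* term was −2.31 ± 0.37 (adjusted p = 0.057, 0.0468% of 12833 genes called), and it was called in 7 of 9 alternatives, with DESeq2 (adjusted p = 0.35) and without KO2 (adjusted p = 0.078) as the exceptions.

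Smooth muscle-like cells, the contractile cells of arteries, arterioles and large veins, held *Angpt2* at 51.7 and 26.7 CPM in WT1 and WT2 and at 16.6 and 8.71 CPM in KO1 and KO2. The *Angpt2*-KO mice were lower without overlap, although WT1 was well above WT2. The difference was −1.81 ± 0.37 (edgeR, adjusted p = 0.14), in a class where 1 of 10258 genes (0.00975%) was called, against 2 by DESeq2. Without WT1 it was −1.23 (adjusted p = 0.20) and without KO2 −1.37 (adjusted p = 0.080), whereas it was called without WT2 (−2.20), without KO1 (−2.25) and with the replicate block (−1.72, adjusted p = 6.3e-04). In cells without markers of another lineage, *Angpt2* was at 63.9 and 53.3 CPM (22 UMIs each) in WT1 and WT2, and at 24.8 and 8.45 CPM (4 and 3 UMIs) in KO1 and KO2. Summed over mice of a genotype the *Angpt2*-WT level was 4.29 times the *Angpt2*-KO level (exact Poisson 95% interval 1.92 to 11.3, counting error only). An *Angpt2* UMI was found in 27.4%, 20.9%, 21.2% and 5.67% of all smooth muscle-like cells in WT1, WT2, KO1 and KO2, and in 13.9%, 7.18%, 1.92% and 1.13% after thinning.

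In pericyte-like cells, *Angpt2* depended on which cells were summed. Over all of them it was at 86.1 and 60.9 CPM in WT1 and WT2 and at 89.4 and 69.6 CPM in KO1 and KO2. The genotypes overlapped, with a difference of +0.15 ± 0.22 (adjusted p = 0.78). Summed angiogenic EC markers in these cells were at 5030 and 5316 CPM in the *Angpt2*-WT and at 12542 and 9726 CPM in the *Angpt2*-KO mice, and their part in the *Angpt2* level was not tested. In the 26, 45, 27 and 43 pericyte-like cells without markers of another lineage, *Angpt2* was at 213 and 159 CPM (17 and 18 UMIs) in WT1 and WT2, and at 15.6 and 10.7 CPM (2 UMIs and 1 UMI) in KO1 and KO2. There the *Angpt2*-KO mice were far below the *Angpt2*-WT mice. The difference was −3.65 ± 0.73 (edgeR, adjusted p = 1.7e-04). Over the summed mice the *Angpt2*-WT level was 13.4 times the *Angpt2*-KO level (exact Poisson 95% interval 4.22 to 68.1, counting error only). The UMIs of WT1 and WT2 came from 6 and 8 cells, and the interval does not cover the spread between cells or mice. The filter counted markers of any other lineage, among them *Ttr*. A *Ttr* UMI was found in 98.6%, 97.9%, 38.3% and 68.6% of all pericyte-like cells in WT1, WT2, KO1 and KO2. The kept cells were a smaller part of the class in both *Angpt2*-KO mice. They were also shallower than the whole class (medians of 1827 to 3830 UMIs). The part of this selection in the difference was not tested.

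The share of pericyte-like cells with an *Angpt2* UMI also depended on the setting, less clearly. It was 30.1%, 17.8%, 32.6% and 24.0% in WT1, WT2, KO1 and KO2 before thinning, when KO1 cells were far deeper (median 12238 UMIs) than those of the other mice (3679 to 4957). After thinning to 2000 UMIs it was 13.6%, 11.6%, 6.63% and 11.3%, with KO1 the lowest and KO2 nearly level with WT2.

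**Figure D2:**
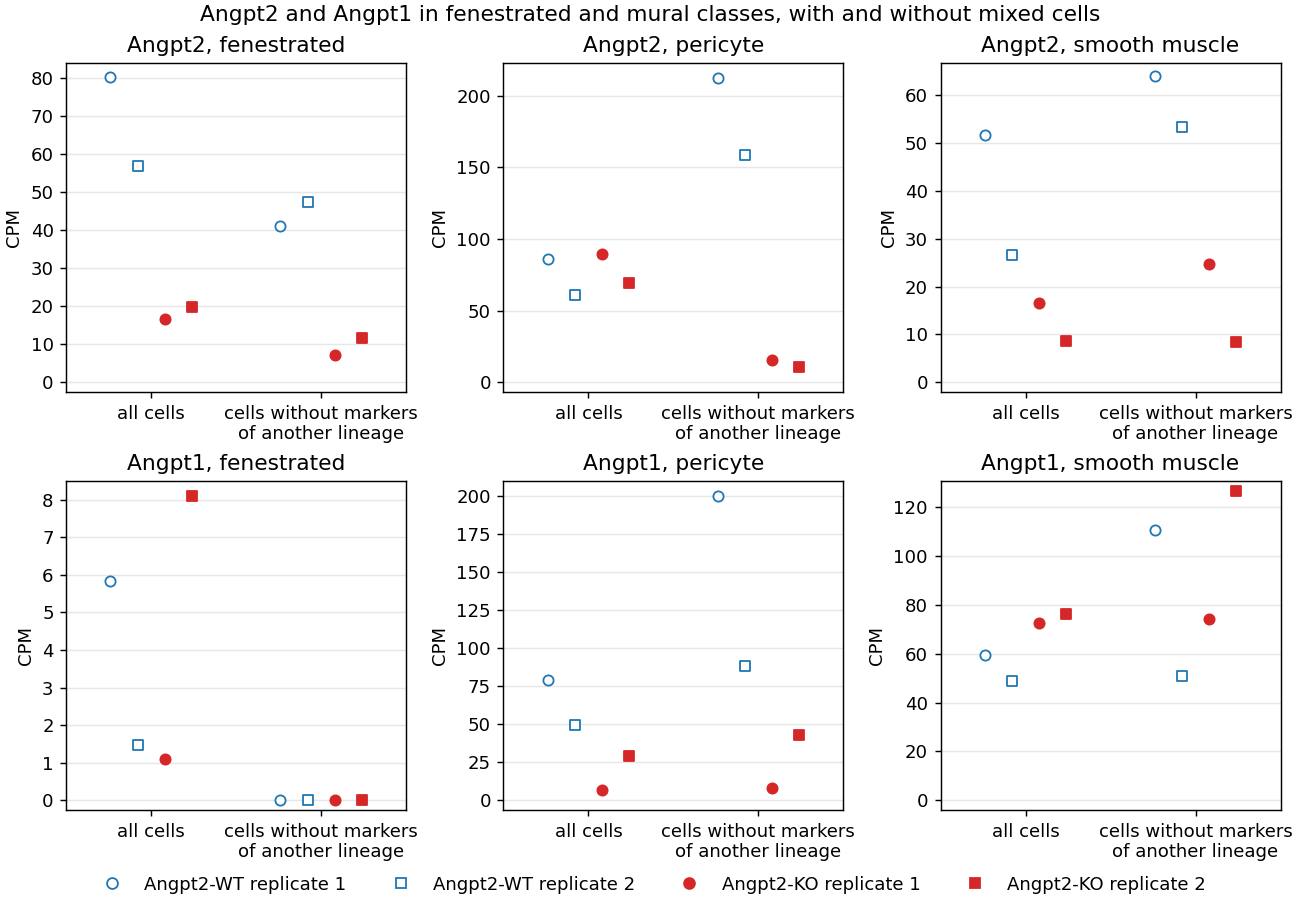
*Angpt2* (top) and *Angpt1* (bottom) in CPM per mouse, in all cells of the fenestrated-like, pericyte-like and smooth muscle-like classes and in those without 2 or more markers of another lineage; symbols as in the plot of levels by class. *Angpt2* in pericyte-like cells overlapped between genotypes over all cells and was 159 to 213 CPM against 10.7 to 15.6 CPM in the remaining cells.

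Ordered by the mean over the 4 mice (± SD), *Angpt2* was at 192 ± 138 CPM in angiogenic-like ECs, 76.5 ± 13.5 in pericyte-like cells, 43.4 ± 30.7 in fenestrated-like ECs, 25.9 ± 18.7 in smooth muscle-like cells, 17.6 ± 3.76 in capillary-like, 6.32 ± 1.21 in arterial-like and 3.78 ± 0.759 CPM in venous-like ECs, with 4.53 ± 2.07 CPM in microglia-like cells. Pericyte-like cells (60.9 to 89.4 CPM) overlapped in range with fenestrated-like ECs (16.5 to 80.3 CPM). Fenestrated-like ECs, smooth muscle-like cells and capillary-like ECs also overlapped. Microglia-like cells overlapped with arterial-like and with venous-like ECs, which did not overlap with each other. The order of the means of 3 classes was not the same in both genotypes. They were 68.7 ± 16.5, 39.2 ± 17.7 and 15.0 ± 3.70 CPM in fenestrated-like, smooth muscle-like and capillary-like cells of *Angpt2*-WT mice, while those of *Angpt2*-KO mice were 18.2 ± 2.40, 12.7 ± 5.59 and 20.2 ± 1.44 CPM (SD, n = 2 each). Between zones of brain ECs, with the mouse as a block, *Angpt2* was lower in arterial-like than in capillary-like ECs (−1.40 ± 0.17, 43.5% of all genes called), lower in venous-like than in capillary-like ECs (−2.20 ± 0.15, 43.9% called) and higher in arterial-like than in venous-like ECs (+0.80 ± 0.21, 26.2% called). The last call was lost without WT2 (+0.59, adjusted p = 0.10). These zones are clusters of the same cells, so that a call between them describes the clusters and is not an independent test.

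Among the brain EC sums (18 sums of 5 classes and 4 mice with at least 20 cells, 6535 genes), the genes whose log2 level was most like that of *Angpt2* were *Arhgap29* (Pearson r = 0.95), *Adgrl4* (0.95), *Bcl2* (0.94), *Enpp2* (0.93) and *Chst2* (0.93). Over the 34 sums of all classes (6960 genes) they were *Bcl2* (0.87), *Kit* (0.84) and *Nid1* (0.79), the last a marker used for the angiogenic-like class. The sums share mice, libraries and depth, and these values are descriptions.

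*Angpt1*, the agonist ligand, was found mainly in mural cells, and it was lower in pericyte-like cells of *Angpt2*-KO mice. There it was at 79.1 and 49.6 CPM in WT1 and WT2 (45 and 48 UMIs) and at 6.46 and 29.2 CPM in KO1 and KO2 (25 and 47 UMIs). Both *Angpt2*-KO mice lay below both *Angpt2*-WT mice, KO1 the farthest. *Angpt1* fell by 2.11 ± 0.46 on the log2 scale (SE, n = 2 mice per genotype, edgeR, adjusted p = 0.0092), where 544 of 9734 genes (5.59%) were called. Without KO1 the difference was −1.11 (adjusted p = 0.035) and without KO2 −3.28. The call was lost without WT1 (−1.75, adjusted p = 0.16) and with a limit of 5% on mitochondrial UMIs (−1.85, adjusted p = 0.11).

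In pericyte-like cells without markers of another lineage, *Angpt1* was at 200.1 and 88.1 CPM in WT1 and WT2 (16 and 10 UMIs) and at 7.79 and 42.6 CPM in KO1 and KO2 (1 UMI and 4 UMIs). The order of the genotypes was as over all cells, in the same shallow cells selected unequally by genotype. Over the summed mice the *Angpt2*-WT level was 5.97 times the *Angpt2*-KO level (exact Poisson 95% interval 2.26 to 19.9, counting error only). An *Angpt1* UMI was found in 27.4% (17.6 to 39.1%) of pericyte-like cells in WT1 and 17.8% in WT2, and in 10.3% (6.21 to 15.8%) in KO1 and 8.33% in KO2. After thinning to 2000 UMIs the shares were 22.7%, 15.7%, 3.01% and 5.03%, again lower in both *Angpt2*-KO mice. Microglia-like cells had an *Angpt1* UMI in 0 to 1.51% of cells. Summed brain EC markers in the pericyte-like class (9964 and 11002 CPM in *Angpt2*-WT, 9991 and 9922 CPM in *Angpt2*-KO mice) and summed pericyte markers (13330, 13889, 12365 and 13165 CPM) differed by little between genotypes. Single EC markers did not follow that sum. *Pecam1*, *Cdh5*, *Kdr* and *Flt1* were higher in both *Angpt2*-KO mice, and *Cldn5* and *Itm2a* were lower. The unthinned share of cells with a UMI was higher in both *Angpt2*-KO mice for each listed brain EC marker. For *Pecam1* it was 32.9% and 30.8% in WT1 and WT2, against 53.1% and 53.9% in KO1 and KO2. Other lists moved with genotype or with 1 mouse in these cells. Angiogenic EC markers were at 5030 and 5316 CPM in WT1 and WT2 and at 12542 and 9726 CPM in KO1 and KO2, tip markers at 265 and 294 CPM against 1809 and 1286 CPM, and erythrocyte markers at 9061 CPM in KO1 against 80.8 to 928 CPM in the other mice. The part of these lists and of the single EC markers in the *Angpt1* difference was not tested.

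Smooth muscle-like cells held *Angpt1* at 59.4 and 48.7 CPM in WT1 and WT2 and at 72.7 and 76.4 CPM in KO1 and KO2. Here the *Angpt2*-KO mice were slightly higher without overlap, but the difference of +0.37 ± 0.21 did not pass the test (adjusted p = 0.90). In cells without markers of another lineage the levels were 110, 50.9, 74.3 and 127 CPM, which overlapped. The difference of the genotype effects between the mural classes was not tested. An *Angpt1* UMI was found in 30.4 to 37.1% of smooth muscle-like cells in WT1, WT2 and KO2 and in 57.7% in KO1, and in 10.6%, 6.63%, 7.69% and 15.8% after thinning, where the genotypes overlapped.

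ECs held little *Angpt1*. Over all brain ECs it was at 2.08 and 1.65 CPM in WT1 and WT2 and at 0.577 and 2.59 CPM in KO1 and KO2. The genotypes overlapped (−0.25 ± 0.57, adjusted p = 0.86), and only without KO2 was the difference called (−1.67, adjusted p = 0.018). Arterial-like ECs were the highest zone, at 5.96, 4.70, 5.14 and 11.3 CPM in WT1, WT2, KO1 and KO2. Capillary-like ECs had 6 UMIs in WT2 and 5 UMIs in KO2, and none in WT1 (0 of 1738 cells, which allows a share of cells with a UMI of up to 0.173% at a floor of 3 counts) or KO1 (0 of 768 cells, up to 0.391%). These limits concern cells with a UMI, not cells that express the gene. Between zones, *Angpt1* was higher in arterial-like than in capillary-like ECs by 4.08 ± 0.40, in venous-like than in capillary-like ECs by 2.14 ± 0.45 and in arterial-like than in venous-like ECs by 1.94 ± 0.28, all called. Within the venous-like class, the cluster with strong venous markers held 3.80, 2.77, 2.24 and 14.2 CPM and the larger one under 1 CPM in every mouse. Shares of arterial-like ECs with an *Angpt1* UMI were 2.72 to 4.93%, and 0.483 to 2.05% after thinning. No genotype difference of *Angpt1* was called in arterial-like or venous-like ECs, and capillary-like ECs had too few counts for the test.

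Over the classes, *Angpt1* was highest in smooth muscle-like cells (64.3 ± 12.7 CPM, mean ± SD of the 4 mice) and pericyte-like cells (41.1 ± 30.8), whose ranges overlapped. Within *Angpt2*-WT mice the means were 54.0 ± 7.56 and 64.3 ± 20.9 CPM in these classes, and within *Angpt2*-KO mice 74.5 ± 2.60 and 17.8 ± 16.1 CPM. It was at 6.77 ± 3.06 in arterial-like, 4.13 ± 3.41 in fenestrated-like and 1.79 ± 1.55 CPM in venous-like ECs, neighbours that overlapped, with 2.01 ± 1.92 CPM in microglia-like cells and 0.339 ± 0.392 CPM in capillary-like ECs. In fenestrated-like ECs without markers of another lineage there was no *Angpt1* UMI in any mouse (25, 104, 65 and 98 cells). The genes most like *Angpt1* were *Plec* (r = 0.92), *Ehd2* (0.88), *Kctd10* (0.87), *Plpp1* (0.84) and *Vps36* (0.84) over the 18 brain EC sums, and *Parm1*, *Perp* and *Dbndd2* (0.91 each) over the 34 sums.

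*Tek*, the TIE2 receptor, was carried by ECs of all zones, and its level was lower in the angiogenic-like cells. Over all brain ECs it was at 455 and 454 CPM in WT1 and WT2 and at 303 and 396 CPM in KO1 and KO2. The *Angpt2*-KO mice were lower without overlap, and the difference of −0.39 ± 0.16 was not called (edgeR, adjusted p = 0.23). Outside the angiogenic-like cluster *Tek* was at 456 and 455 CPM in *Angpt2*-WT and at 422 and 453 CPM in *Angpt2*-KO ECs, a difference of −0.07 ± 0.12 (adjusted p = 0.86). Genotype differences in arterial-like, capillary-like and venous-like ECs were 0.00 ± 0.15, −0.15 ± 0.13 and −0.06 ± 0.15, none called under any alternative. Zone means differed little as well. With means of 476 ± 15.4 (arterial-like), 448 ± 37.7 (capillary-like) and 443 ± 35.0 CPM (venous-like, mean ± SD of 4 mice), no pair of zones passed the main test for *Tek*. Arterial-like minus venous-like ECs was called in 1 of 10 alternatives. The capillary-like mean joins unlike clusters. The larger held *Tek* at 507, 630, 470 and 492 CPM in WT1, WT2, KO1 and KO2, and the smaller at 364, 402, 356 and 343 CPM.

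Fenestrated-like ECs held *Tek* at 319 and 362 CPM in WT1 and WT2 and at 378 and 362 CPM in KO1 and KO2, with overlap (+0.05 ± 0.16, adjusted p = 0.99). Their share with a *Tek* UMI was 70.5 to 82.4%, against 69.9 to 83.7% in brain ECs and 4.53 to 12.5% in microglia-like cells, and 46.3 to 51.0%, 43.2 to 58.6% and 0.420 to 6.98% after thinning. In pericyte-like cells *Tek* was at 200.3 and 211 CPM in *Angpt2*-WT and at 124 and 162 CPM in *Angpt2*-KO mice (−0.57 ± 0.18, adjusted p = 0.078), and it was called without KO2 (−0.76) and with a minimum count of 50 (−0.61). Without cells holding markers of another lineage, pericyte-like cells had 1 *Tek* UMI, in WT2, and smooth muscle-like cells had 1 UMI each in WT1 and KO2. Microglia-like cells held *Tek* at 72.2, 73.1, 18.9 and 60.9 CPM in WT1, WT2, KO1 and KO2, beside the EC marker *Pecam1* at 88.1 to 162 CPM (−1.02 ± 0.40, adjusted p = 0.88). Over all smooth muscle-like cells *Tek* was at 179, 198, 273 and 156 CPM in WT1, WT2, KO1 and KO2, beside brain EC markers of 5395 to 7608 CPM.

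Within *Angpt2*-KO mice, the angiogenic-like cluster and its tip-like cells set the receptor and its ligand apart. *Angpt2* was at 21.2 and 19.2 CPM in capillary-like ECs of KO1 and KO2, at 102 and 104 CPM in angiogenic-like cells other than tip-like cells, and at 185 and 214 CPM in the 85 and 43 tip-like cells. *Tek* was at 432 and 417, at 225 and 274, and at 33.9 and 44.6 CPM in the same groups. *Angpt2* went up and *Tek* went down from one group to the next in both mice. Compared with capillary-like ECs, the whole angiogenic-like cluster differed by +2.51 ± 0.14 for *Angpt2* and by −0.97 ± 0.13 for *Tek*, both called (22.8% of 10205 genes were). Tip-like against other angiogenic-like cells, *Angpt2* differed by +1.03 ± 0.10 and *Tek* by −2.59 ± 0.13, both called (27% of 9600 genes were). These calls, too, describe clusters of the same cells, held under the 6 alternatives tried, and *Tek* ranged there from −1.01 to −0.66 and from −2.69 to −2.54.

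**Figure D3:**
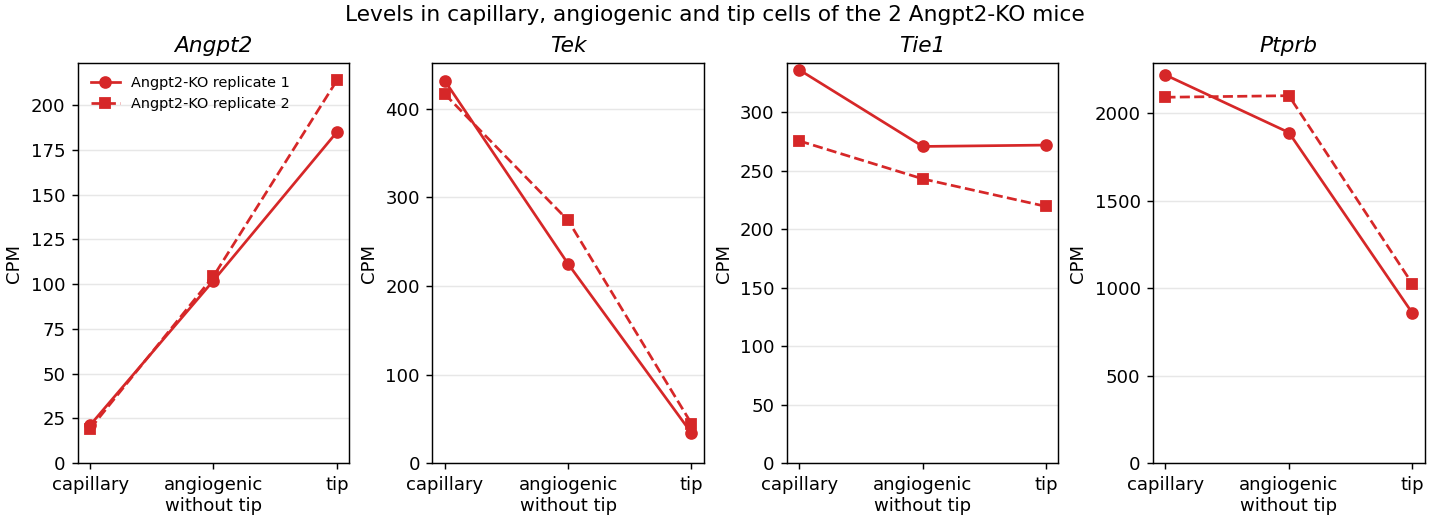
*Angpt2*, *Tek*, *Tie1* and *Ptprb* in CPM (linear axes from 0) in capillary-like, angiogenic-like without tip-like, and tip-like cells of KO1 (circles, solid line) and KO2 (squares, dashed line); a line joins the values of 1 mouse. *Angpt2* reached 185 and 214 CPM and *Tek* 33.9 and 44.6 CPM in tip-like cells, while *Tie1* stayed between 219 and 272 CPM in both angiogenic groups.

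The share of tip-like cells with a *Tek* UMI was 34.1% in KO1 and 30.2% in KO2, against 77.2% and 71.0% of other angiogenic-like and 75.3% and 63.1% of capillary-like cells. The *Tek* shares after thinning were 4.88% and 8.57% against 31.1% and 38.7%, and against 53.3% and 52.5%. In both mice the tip-like *Tek* share was the lowest, although tip-like cells were the deepest (median 19506 and 9435 UMIs) of the 3 groups. The *Angpt2*-WT cells of the angiogenic-like cluster held *Tek* at 366 and 315 CPM.

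Over the 18 brain EC sums, *Tek* was most like *Palm* (r = 0.99), *Ceacam1* (0.99), *Aqp11* (0.98), *Osbpl1a* (0.98) and *Nebl* (0.98), and over all 34 sums like *Ndrg1* (0.96), *Gbp4* (0.95) and *Clec2d* (0.95).

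*Tie1*, the co-receptor, showed no called difference by genotype. Over all brain ECs it was at 293 and 304 CPM in WT1 and WT2 and at 298 and 276 CPM in KO1 and KO2, with overlap (−0.07 ± 0.12, adjusted p = 0.80). No class showed a called genotype difference under the main test or an alternative, and the estimates lay between −0.46 in microglia-like cells, where 7 of 9092 genes (0.077%) were called, and +0.28 in pericyte-like cells. The share of brain ECs with a *Tie1* UMI was 62.9 to 81.4%, and 41.1 to 43.9% after thinning, against 6.83 to 8.79% and 3.18 to 6.51% in microglia-like cells.

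*Tie1* was higher in fenestrated-like ECs, at 444, 465, 457 and 450 CPM in WT1, WT2, KO1 and KO2, than in any zone of brain ECs (256 to 336 CPM), without overlap in any mouse. This difference between classes was not tested. By zone, *Tie1* was at 319 ± 8.03 CPM in venous-like, 297 ± 28.1 in capillary-like and 273 ± 13.5 CPM in arterial-like ECs (mean ± SD of 4 mice), and the arterial-like level was below the venous-like level by −0.22 ± 0.06 (called, adjusted p = 0.0032, edgeR, and not called without WT2 at −0.18). Arterial-like minus capillary-like ECs was −0.13 ± 0.06 (adjusted p = 0.061, edgeR) and was called in 3 of 10 alternatives. The larger capillary-like cluster held *Tie1* at 312 to 359 CPM and the smaller at 227 to 293 CPM. In tip-like cells of KO1 and KO2 it was at 272 and 219 CPM against 271 and 243 CPM in other angiogenic-like cells, a difference of +0.07 ± 0.09 (adjusted p = 0.63). In pericyte-like and smooth muscle-like cells without markers of another lineage, *Tie1* had between 0 and 3 UMIs per mouse. Genes most like *Tie1* were *mt-Nd4l* (r = 0.86), *Tmtc4* (0.85), *Unc45b* (0.81), *Caskin2* (0.81) and *Dusp23* (0.81) over brain EC sums, and the junction gene *Cdh5* (0.98), *Hdac7* (0.97) and *Fgd5* (0.97) over all sums.

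*Ptprb*, which encodes VE-PTP, was found in nearly all ECs. Over all brain ECs it was at 2263 and 2058 CPM in WT1 and WT2 and at 2140 and 2437 CPM in KO1 and KO2, with overlap (+0.07 ± 0.17, adjusted p = 0.88). Outside the angiogenic-like cluster it was at 2275 and 2057 CPM against 2604 and 2610 CPM, with both *Angpt2*-KO mice higher. This difference of +0.25 ± 0.15 was not called (adjusted p = 0.54), but it was called without WT1 (+0.34, adjusted p = 0.023).

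The higher *Ptprb* values lay outside the capillary-like class. Arterial-like ECs had 2097 and 1782 CPM in WT1 and WT2 and 2457 and 2861 CPM in KO1 and KO2 (+0.41 ± 0.16, adjusted p = 0.48). Venous-like ECs had 2493 and 2091 CPM against 2894 and 3170 CPM (+0.35 ± 0.17, adjusted p = 0.46), and fenestrated-like ECs 2027 and 1843 CPM against 2867 and 3078 CPM (+0.55 ± 0.16, adjusted p = 0.96). In these 3 classes both *Angpt2*-KO mice exceeded both *Angpt2*-WT mice, and none of the differences was called. Capillary-like ECs had 2076 and 2142 CPM against 2219 and 2092 CPM, with overlap. The genotype difference in arterial-like ECs exceeded that in capillary-like ECs by 0.40 ± 0.12 (adjusted p = 0.45, 0.0827% of 12091 genes called), and that in venous-like ECs did so by 0.35 ± 0.12 (adjusted p = 0.41, 0.256% called). Without KO1 both were called, at +0.54 and +0.43.

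In pericyte-like cells *Ptprb* was at 1123 and 945 CPM in WT1 and WT2 and at 1263 and 1185 CPM in KO1 and KO2 (+0.21 ± 0.17, adjusted p = 0.58), and in smooth muscle-like cells at 985 and 1073 CPM against 1968 and 1258 CPM (+0.55 ± 0.23, adjusted p = 0.90). Neither was called, but the pericyte-like difference was after thinning (+0.75, adjusted p = 0.030). In pericyte-like cells without markers of another lineage *Ptprb* had 3, 4, 0 and 1 UMIs in WT1, WT2, KO1 and KO2.

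Shares of cells with a *Ptprb* UMI were 96.4 to 98.6% of brain ECs, 89.1 to 98.1% of fenestrated-like ECs and 10.9 to 18.3% of microglia-like cells, and 92.3 to 94.3%, 83.8 to 96.3% and 6.30 to 14.9% after thinning. Tip-like cells of KO1 and KO2 held *Ptprb* at 859 and 1026 CPM against 1890 and 2101 CPM in other angiogenic-like cells, lower by −0.98 ± 0.09 (called). Between the whole angiogenic-like cluster and capillary-like ECs, neither *Ptprb* (−0.24 ± 0.15, adjusted p = 0.26) nor *Tie1* (−0.27 ± 0.13, adjusted p = 0.12) was called, and both were when the listed genes took part in the clustering (−0.31 each, adjusted p = 3.7e-04 and 0.0013). Between zones, *Ptprb* was higher in venous-like than in capillary-like ECs (+0.26 ± 0.07) and lower in arterial-like than in venous-like ECs (−0.20 ± 0.07), both called, and both signs turned when the listed genes took part in the clustering. The second call was also lost without WT1, without WT2 or without KO1 (−0.19 each). The capillary-like level averages unlike clusters. The larger held *Ptprb* at 2616, 2992, 2656 and 2747 CPM in WT1, WT2, KO1 and KO2, and the smaller at 1438, 1472, 1361 and 1453 CPM. In the larger venous-like cluster it was at 2395, 2007, 2682 and 2888 CPM, below the larger capillary-like cluster in both *Angpt2*-WT mice. Over brain EC sums *Ptprb* was most like *Cbfa2t3* (r = 0.95), *Pkp4* (0.95), *Synj1* (0.95) and *Specc1l* (0.94), and over all sums like *She* (0.98), *Samd12* (0.97) and *App* (0.97).

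**Figure D4:**
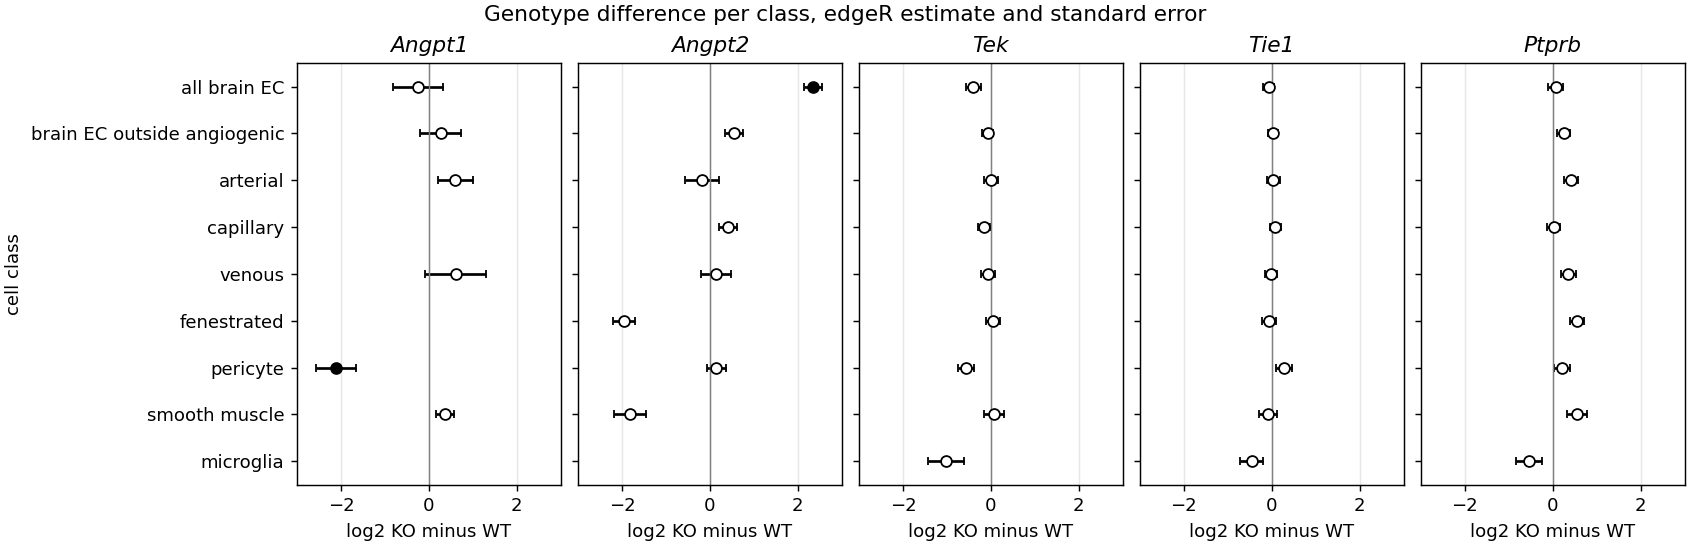
Genotype difference of each gene in each class, as log2 *Angpt2*-KO minus *Angpt2*-WT from edgeR with its SE (bars, n = 2 mice per genotype); filled circles passed an adjusted p of 0.05. Of all points, *Angpt2* over all brain ECs (+2.35) and *Angpt1* in pericyte-like cells (−2.11) are filled.

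Of the other 70 genes listed for the pathway, 58 were tested over all brain ECs, where 3 rose, 3 fell and 52 did not pass, beside 505 genes that rose and 281 that fell (5.81%) of the 13521 tested in all, with a median difference of −0.00 against −0.02 over all genes tested. Risers were *Itgb3* (+1.51 ± 0.34) and *Itgb1* (+0.78 ± 0.16), integrin subunits of heterodimers to which ANGPT2 can bind, and *Fyn* (+0.76 ± 0.12), a SRC family kinase. *Pak1* (−1.84 ± 0.26), a kinase downstream of adaptors of TIE2, *Stat5a* (−0.86 ± 0.19), a transcription factor activated by TIE2, and *Grb7* (−0.81 ± 0.17), an adaptor that binds the receptor, fell. By role, 2 of 5 integrin partners rose and none fell, of 18 adaptors 1 rose and 2 fell, of 12 transcription factors 1 fell, and none of the 5 further ligands, 10 kinases and effectors or 8 FOXO target genes tested was called. Outside the angiogenic-like cluster, *Pak1* alone passed among the 58 pathway genes tested (−1.17 ± 0.20, adjusted p = 0.030). *Pak1* was also higher in venous-like than in capillary-like ECs (+2.75 ± 0.18), and venous-like ECs were a smaller part of brain ECs in *Angpt2*-KO (16.6% and 14.9%) than in *Angpt2*-WT mice (25.4% and 31.2%). The part of this in its lower level was not tested.

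In the angiogenic-like cluster of *Angpt2*-KO mice against capillary-like ECs, 8 of 54 tested pathway genes were higher and 8 lower, beside 22.8% of all genes called, with a median of 0.00 for them and −0.00 over all genes. The genes named here were chosen after their values were seen. The integrin partners *Itgb3* (+2.03 ± 0.30), *Itgb1* (+0.84 ± 0.14) and *Itga5* (+0.61 ± 0.14) were higher, and the TEC family kinase gene *Bmx* was lower (−1.49 ± 0.16). In tip-like against other angiogenic-like cells, 13 of 52 were higher and 13 lower, beside 27% of all genes called. All 4 integrin partners tested were higher there, from *Itgav* (+1.52 ± 0.18) to *Itgb3* (+3.98 ± 0.27). Of 8 FOXO target genes tested, 1 was higher, *Sesn3* (+0.96 ± 0.11), and 3 were lower. Also lower were the flow-responsive transcription factors *Klf2* (−1.68 ± 0.09) and *Klf4* (−1.80 ± 0.10) and the adaptor *Grb14* (−2.65 ± 0.17). Of 11 transcription factors tested 3 were higher and 2 lower, and of 16 adaptors 3 were higher and 2 lower.

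In pericyte-like cells, 5 of 53 tested pathway genes rose and 2 fell, beside 346 genes that rose and 198 that fell (5.59%) of the 9734 tested in all, with a median of +0.13 against −0.00 over all genes. *Itgb3* (+3.28 ± 0.73) and *Fyn* (+1.27 ± 0.19) rose most. *Agtr1a* (−3.90 ± 0.80), an angiotensin II receptor of brain pericytes, and *Klf4* (−0.63 ± 0.18) fell. *Itgb3*, *Itgb1* and *Fyn* were also called over all brain ECs, and the higher level of angiogenic EC markers in pericyte-like cells of *Angpt2*-KO mice stands beside them, its part not tested. None of the 57 pathway genes tested in smooth muscle-like cells, 50 in fenestrated-like ECs, 52 in microglia-like cells or 54 to 57 in the single zones was called between genotypes. Over all genes, 0.00975%, 0% and 0.077% were called in the first classes and 0.371 to 1.34% in the zones. At these shares hardly any call would fall among so few genes, so their absence is not particular to the pathway.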

How the data were processed

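Vessel fragments from the cerebra of 4 mice, 2 per genotype, were profiled by the authors with 10x 3′ single-cell RNA sequencing. The deposited values are raw UMI counts per gene and barcode, made by the authors with Cell Ranger (6.1.2 per the labels, 6.1.1 per the file headers) on mm10, and not normalized. The strand setting is not given in the sources used here.

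Barcodes were kept if they had over 500 genes and a mitochondrial share of UMIs below 10%. They were clustered with Seurat 5.3.0 on 2000 variable genes and 50 principal components at a resolution of 0.2, brain ECs again at 0.4, and tip-like cells were split off at 0.6. The 75 genes of the pathway list were kept out of the clustering. Clusters were named from marker lists, with at least 3 markers detected in 25% of their cells, and the angiogenic and tip lists were counted together, which was settled after the clusters were seen. No doublet caller was run. In the alternative for mixed cells, the 9130 of 17999 cells with 2 or more markers of another lineage were left out.

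UMI counts were summed per mouse and class and tested with edgeR 4.0.16 (quasi-likelihood, R 4.3.3) across all genes passing its filter, with Benjamini-Hochberg adjustment and a threshold of 0.05, where the study tested single cells. Genotype was compared within classes, and zones were compared with the mouse as a block. The two-sided p-values rest on a variance moderated across genes, not on the spread of a gene between these mice alone. They say nothing about other mice. The SE of an edgeR estimate was taken from the estimate and its F statistic. Shares of cells carry exact Clopper-Pearson intervals, and were repeated with each cell thinned to 2000 or 1000 UMIs, leaving out shallower cells. Alternatives were DESeq2 1.42.0, RLE scaling, other filters, leaving out each mouse, a replicate block, thinning, other clusterings and cell filters. The tests were checked on simulated counts. For likeness, Pearson correlations of log2(CPM + 1) were taken over class sums of at least 20 cells, for genes with a mean of at least 20 CPM.

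Named were the 5 genes in all classes, the 5 genes most like each over brain EC sums and the 3 over all sums, up to 5 called pathway genes per direction over all brain ECs and 2 in mural classes, and *Mcph1*, *Pecam1* and *Cdh5* as checks. One gene that this rule names is not reported here. The genes, lists and tests were chosen with earlier results of these data known. The replicate number goes with sex, and the main tests have no replicate block. Replicates differed beyond sampling noise (chi-square per degree of freedom of 86.7 between *Angpt2*-WT and 29.9 between *Angpt2*-KO libraries). The listed YFP sequence had 0 UMIs in every library.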

Additional observations from a re-analysis of the deposited data

Results flagged for a closer look

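The genotype difference of *Angpt2* was not the same in fenestrated-like ECs as in brain ECs outside the angiogenic-like cluster. In fenestrated-like ECs the level was lower in *Angpt2*-KO mice (68.7 ± 16.5 CPM in *Angpt2*-WT and 18.2 ± 2.40 CPM in *Angpt2*-KO mice, mean ± SD, n = 2 each), and in the brain ECs it was not (8.61 and 6.05 CPM against 9.84 and 11.6 CPM). The interaction term, tested by edgeR with the mouse as a block, was −2.50 on the log2 scale (adjusted p = 1.2e-04) and lay between −2.71 and −2.31 in the alternatives. Both *Angpt2*-KO fenestrated-like sums rest on few molecules, 30 and 32 *Angpt2* UMIs against 110 and 155 in the *Angpt2*-WT sums. The part of the sex, library or source of these ECs was not tested.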

How the results depend on the processing

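The labels give both genotypes the same replicate numbers, which go with sex and are tied by no label to a litter, batch or day. The paper describes independent experiments, and neither it nor the labels say which mice belong to each. Deviations of same-numbered mice from their group means correlated across 13521 genes by 0.0933 (Pearson) and −0.135 (Spearman). With so few mice these values cannot decide whether the mice were paired. The main tests did not assume pairs. With the replicate block the difference of *Angpt2* over all brain ECs was +2.31 and that of *Angpt1* in pericyte-like cells −2.07, both called as without it. The block brought *Angpt2* under the threshold in fenestrated-like ECs (−1.96, adjusted p = 0.017) and in smooth muscle-like cells (−1.72, adjusted p = 6.3e-04). It moved the number of called genes from 156 to 352 in capillary-like, from 40 to 113 in arterial-like and from 137 to 332 in venous-like ECs.

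The *Angpt1* difference in pericyte-like cells was −1.85 and no longer called with under 5% mitochondrial UMIs, and ranged from −3.28 to −1.11 when 1 mouse was left out. The *Angpt2* difference there turned to −3.65 in cells without markers of another lineage. Between zones, without the mouse block (no replicate block), the *Ptprb* differences of venous-like minus capillary-like (+0.27) and arterial-like minus venous-like ECs (−0.20) were not called. With the listed genes in the clustering, *Ptprb* turned to −0.24 (arterial-like minus capillary-like), −0.30 (venous-like minus capillary-like) and +0.057 (arterial-like minus venous-like), and *Tie1* to −0.18 (venous-like minus capillary-like). One cluster of 2869 ECs had no name there. For arterial-like minus venous-like ECs, calls were lost for *Angpt2* (+0.62) and *Tie1* (−0.14) after thinning, for *Tie1* with the listed genes (−0.10) and for *Ptprb* at a resolution of 0.3 (−0.17). With 1 mouse left out these 3 ranged from +0.59 to +0.94 (*Angpt2*), from −0.23 to −0.18 (*Tie1*) and from −0.23 to −0.19 (*Ptprb*), with calls lost without WT2 for all 3 and for *Ptprb* also without WT1 or KO1.

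The *Angpt2* share difference (*Angpt2*-KO minus *Angpt2*-WT, in percentage points) moved from 14.3 to 5.61 and 3.04 over all brain ECs with 2000 and 1000 UMIs per cell, from −14.0 to −7.05 and −4.26 in fenestrated-like ECs, from −10.8 to −0.37 in smooth muscle-like cells at 1000 UMIs, and from +4.32 to −3.63 and −2.96 in pericyte-like cells. For *Angpt1* in pericyte-like cells it moved from −13.3 to −7.64 at 1000 UMIs.

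Numbers of called genes ranged over the alternatives from 327 to 1604 over all brain ECs (786 in the main test), from 82 to 1357 outside the angiogenic-like cluster (174), from 0 to 52 in fenestrated-like ECs (0), from 29 to 815 in pericyte-like cells (544), from 0 to 64 in smooth muscle-like cells (1) and from 1 to 163 in microglia-like cells (7). Zone comparisons ranged from 1155 to 5795 genes. DESeq2 called 368 and 669 genes for the angiogenic-like and tip-like comparisons within *Angpt2*-KO mice, against 2322 and 2589 by edgeR. Leaving out a mouse within *Angpt2*-KO was not run, because it leaves no residual degrees of freedom. For differences called in the main test, 137 values under an alternative kept direction and call, 13 lost the call and 2 reversed. For differences not called there, 726 values stayed without a call, whether or not the direction was kept. A further 34 gained a call in the same direction and 3 were called in the other direction. With 2 mice per genotype and 52 to 318 cells per mouse in the rare classes, the number of mice and the low *Angpt1* and *Angpt2* counts limited the precision.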

Other observations

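Outside the classes described, *Tek* UMIs were counted in clusters named for other cell types, beside EC genes. A cluster named choroid plexus-like held 176 cells of KO2 and 8 to 32 cells of the other mice. In KO2 a *Tek* UMI was found in 93.8% of its cells, an *Angpt1* UMI in 36.4%, an *Angpt2* UMI in 34.7% and a *Pecam1* UMI in 96.6%. *Ptprb* was at 3159 and *Tie1* at 296 CPM there. The 8 cells of KO1 had no *Tek* or *Pecam1* UMI. The KO2 values thus do not describe choroid plexus epithelium alone, and the part of ECs in them was not tested. An erythrocyte-like cluster (49, 74, 47 and 66 cells in WT1, WT2, KO1 and KO2) had a *Tek* UMI in 83.0 to 98.6% of cells and a *Pecam1* UMI in 85.1 to 100% of them.

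Within angiogenic-like cells thinned to 2000 UMIs, cells with an *Angpt2* UMI held *Tek* at 102 CPM and those without at 214 CPM in KO1 (132 and 681 cells), and at 189 against 256 CPM in KO2 (159 and 688 cells). *Ptprb* was at 1447 against 1772 CPM in KO1 and at 1723 against 1911 CPM in KO2. Both genes were lower in the cells with an *Angpt2* UMI in both *Angpt2*-KO mice. Tip-like cells were included in this split. They held more *Angpt2* and less *Tek* and *Ptprb* than other angiogenic-like cells, and their part in the difference was not tested. Among the few *Angpt2*-WT cells, *Tek* was at 188 against 383 CPM in WT1 (8 and 30 cells) and was also lower with an *Angpt2* UMI in WT2 (11 and 26 cells), and *Ptprb* went the other way in WT1 (1625 against 1433 CPM) and not in WT2. No test was run, since cells of 1 mouse are not replicates.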
